A study of Homo sapiens with 6 samples.

Results

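The genes described here are 57 components of DNA double-strand break and interstrand crosslink repair: homologous recombination, the Fanconi anemia pathway, damage signaling, end joining, and a pair of mismatch repair genes. They were taken by symbol from the table of raw gene counts, which holds 60623 genes. 56 were found by the given name and H2AX under its older symbol H2AFX. RNA-Seq had been performed in TC28a2 cells, an immortalized human chondrocyte line, after 24 hours with 2 μM mocetinostat, an inhibitor of class I histone deacetylases, or with the solvent DMSO alone. There were 3 replicates per condition, and all 6 samples came from the same established line. The replicates were separate experiments, as the study describes them. Lines of this kind are kept dividing by an introduced viral oncogene, so they are a model of chondrocytes that cycle in culture, unlike most cells of cartilage.

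Total counts were 11031132, 4873426 and 6926619 in DMSO replicates 1 to 3, and 5089542, 1619344 and 2417199 in mocetinostat replicates 1 to 3, so the treated libraries were the shallower ones on average. Of all genes, 13966 had enough counts to be tested. Expression is given as CPM, a gene's count as a share of the library's total, scaled to the same total in every library, after TMM normalization, a correction that sets most genes to no change between libraries. Fold changes are on the log2 scale, mocetinostat against DMSO. P values are from edgeR's quasi-likelihood test, Benjamini-Hochberg adjusted over all genes tested, and standard errors (SE) were derived from the statistic of that test. A gene is said to have fallen or risen when its adjusted p was under 0.05. Of the chondrocyte markers, SOX9 had a DMSO mean of 106 CPM, while COL2A1 and ACAN were low at 2.20 and 4.72 CPM. Of 9 chondrocyte markers, 7 could be tested and all 7 rose with mocetinostat, where 32.9% of all genes tested rose. The summed level of the 9 genes was 116 to 141 CPM with DMSO and 261 to 299.6 CPM with mocetinostat. Of all genes tested, 31.4% fell and 20.2% rose by over 2-fold. Among 13 markers of other cell types, 8 were tested, 2 fell and 5 rose, each of the 5 by over 2-fold. The median log2 fold change over the 8 was 2.47. CDH1, an epithelial cadherin, had the greatest change, from a mean of 0.258 to one of 19.8 CPM. COL1A1, a fibroblast collagen, made up most of their summed level, which was 4062 to 4935 CPM with DMSO and 3869 to 4235 CPM with mocetinostat. The leukocyte marker PTPRC was at or below 0.685 CPM in both condition means, and CD68 had no more than 3 counts in any sample. In bulk RNA, fewer cells of a kind and less RNA per cell cannot be told apart.

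A double-strand break can be rejoined directly or copied from the sister chromatid. In classical end joining, the Ku heterodimer (XRCC5 and XRCC6) binds the ends, recruits the kinase encoded by PRKDC, and the ends are trimmed and sealed by the XRCC4-LIG4 ligase. In homologous recombination, which works in S and G2 phases, the MRE11-RAD50-NBN complex and its cofactor RBBP8 (CtIP) start to resect the ends, and BRCA1, PALB2 and BRCA2 prepare the resulting single strand for strand exchange. The Fanconi core complex attaches ubiquitin to FANCD2 and FANCI at crosslinked DNA, where nucleases then cut the link out. ATM and ATR signal the damage through H2AX, MDC1 and the kinases CHEK2 and CHEK1. Many of these genes are known to be transcribed most strongly in proliferating cells.

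32 of the 56 members tested fell with mocetinostat, which is 57.1% of them. Over all 13966 genes tested, 31.4% fell. Those genes were not matched to the members in expression level. Only 3 members rose, CHEK2, FANCF and RBBP8, or 5.36% of those tested, where 32.9% of all genes rose. The other 21 members did not pass the test. The median log2 fold change of the 56 members was −0.51, whereas the median of all genes tested was 0.00, and 45 of the 56 lay below it. Directions are given relative to the bulk of all genes, whose median moved by 0.53 when libraries were scaled to GAPDH instead. Under that scaling 14 members fell and 17 rose, and 9.82% of all genes fell and 55.2% rose. Of the 56, 6 fell by over 2-fold, RAD51AP1, POLQ, PARP2, NBN, TOPBP1 and FANCD2, and 8.18% of all genes tested did so. FANCF alone rose by over 2-fold, against 20.2% of all genes. In 34 members, every mocetinostat sample was below every DMSO sample, which held for 32.8% of all genes tested, and in 4 members every mocetinostat sample was above, which held for 33.7%.

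**Figure D1:**
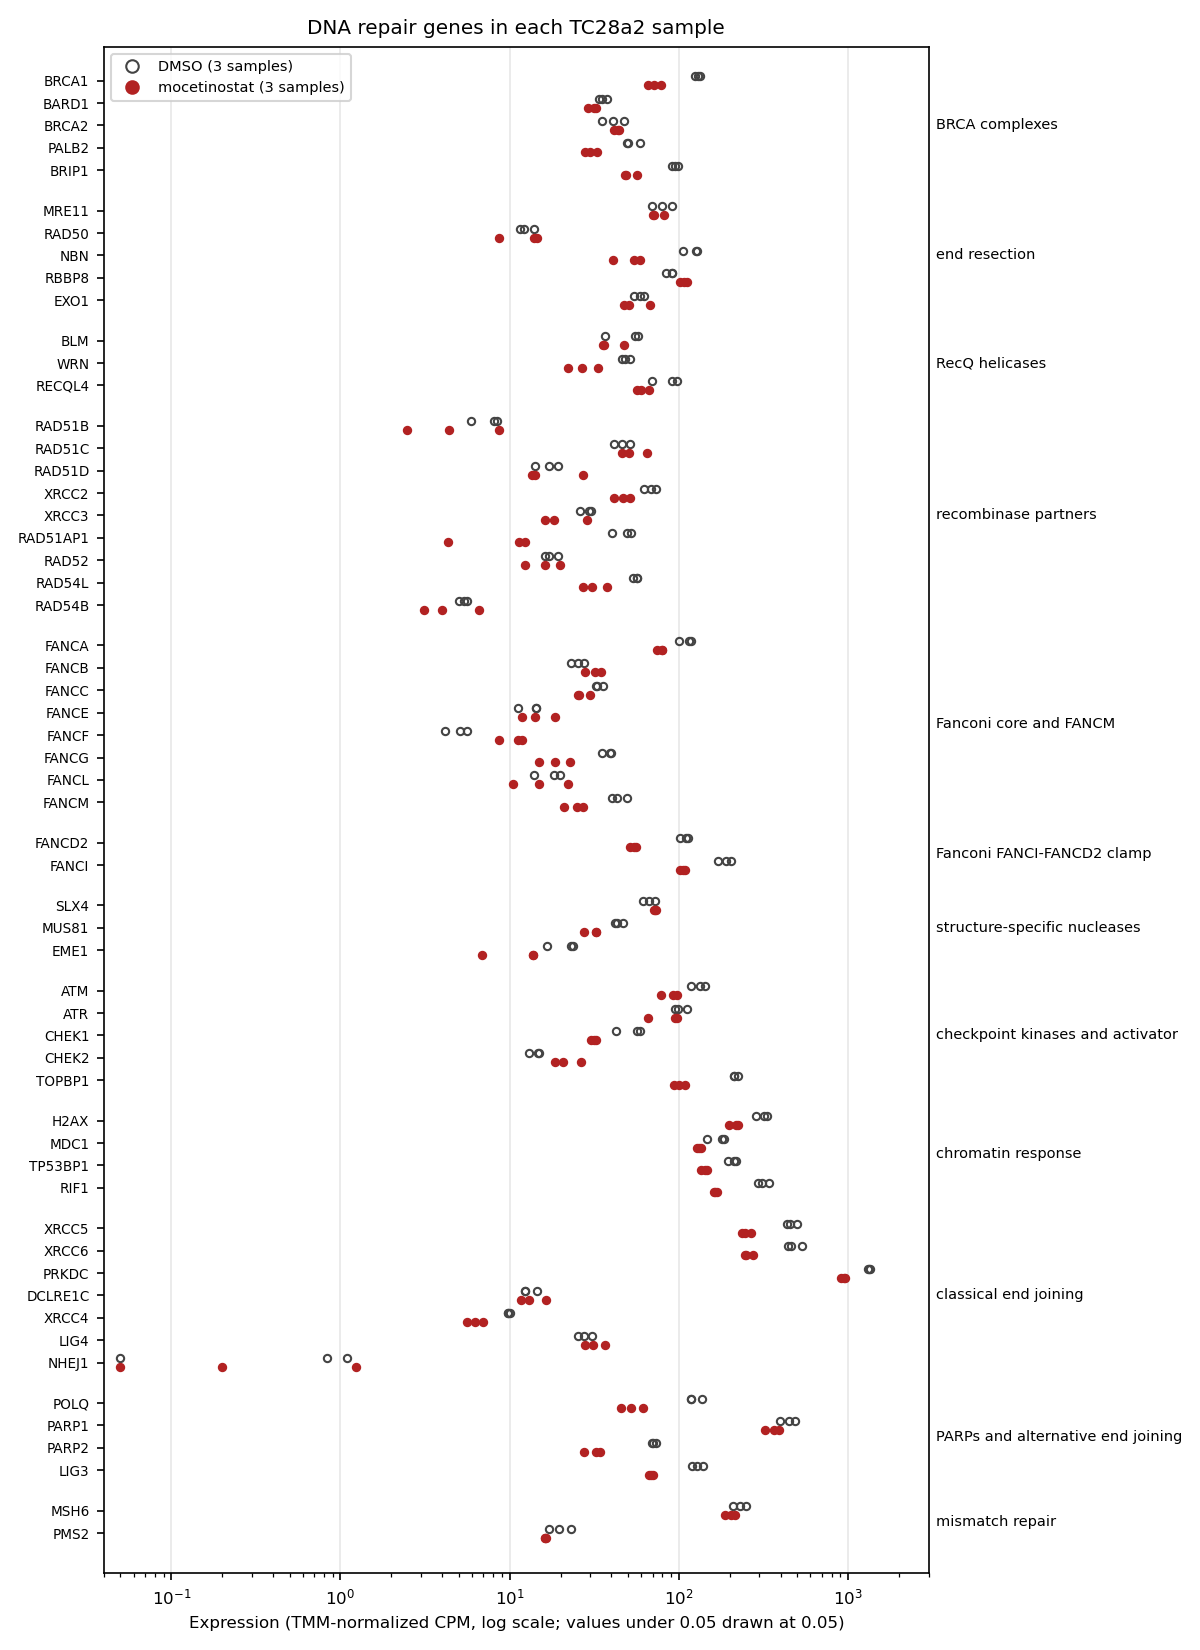
Expression of the 57 DNA repair genes in each sample, as TMM-normalized CPM on a log axis, grouped by role. Open circles are the 3 DMSO samples and filled circles the 3 mocetinostat samples. Levels run from 1345 CPM for PRKDC in DMSO replicate 1 to no counts for NHEJ1 in 1 sample of each condition, and for 34 genes all filled circles lie to the left of all open ones.

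**Figure D2:**
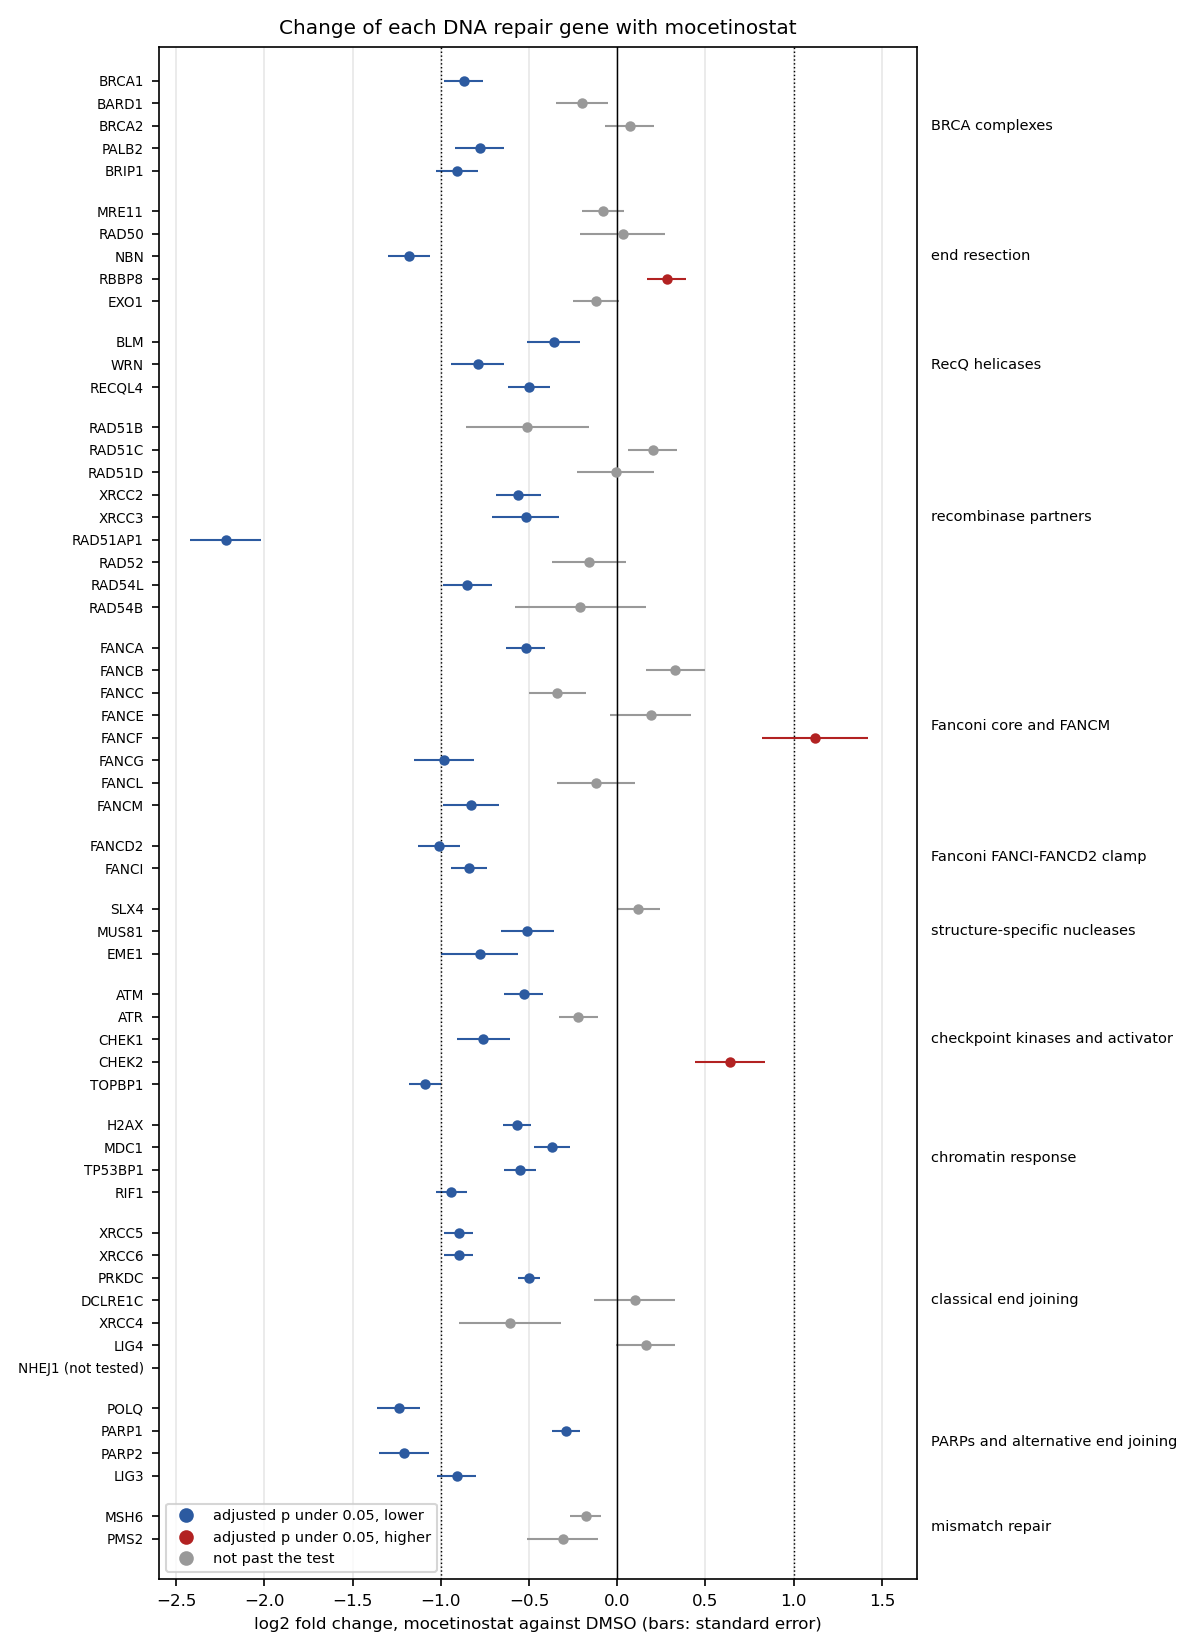
Log2 fold change of each gene, mocetinostat against DMSO, with its standard error as a bar, grouped by role. Dotted lines mark 2-fold. RAD51AP1 lies farthest to the left at −2.22, FANCF farthest to the right at 1.12, and the 4 genes of the chromatin response and the 4 of the PARP and alternative end joining group are all left of 0 under the TMM scaling drawn here, MDC1 and PARP1 being at 0.16 and 0.24 and H2AX and TP53BP1 near 0 under GAPDH scaling.

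The promoters of the members that changed over 2-fold are shown because these genes moved most, and because E2F sites, CHR elements and CCAAT boxes are the letters by which many cell cycle genes are known to be controlled. RefSeq promoter windows on GRCh38.p14, from 250 bases before the transcription start to 50 after it, were at hand for 50 of the 57 members. No window was at hand for NBN, FANCI, XRCC5, WRN, RECQL4 and PRKDC, which all fell, or for RAD54B, which did not pass the test. Each sequence below is written 5′ to 3′ on the gene's strand, from 250 bases before the start to 30 bases from it on, with any match to the 3 motifs in capitals.
RAD51AP1, chr12:4538640-4538919, plus strand: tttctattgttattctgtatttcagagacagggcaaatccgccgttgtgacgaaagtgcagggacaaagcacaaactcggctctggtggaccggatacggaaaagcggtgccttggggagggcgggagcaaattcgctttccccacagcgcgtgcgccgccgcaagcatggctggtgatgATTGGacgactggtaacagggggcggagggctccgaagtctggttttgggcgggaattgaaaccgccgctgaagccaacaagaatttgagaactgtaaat
POLQ, chr3:121545959-121546238, minus strand: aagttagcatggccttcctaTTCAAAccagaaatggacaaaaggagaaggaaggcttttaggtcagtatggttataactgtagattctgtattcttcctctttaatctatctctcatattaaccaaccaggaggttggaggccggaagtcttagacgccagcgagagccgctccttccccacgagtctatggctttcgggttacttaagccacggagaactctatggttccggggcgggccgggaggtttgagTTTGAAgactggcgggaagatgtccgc
PARP2, chr14:20343385-20343664, plus strand: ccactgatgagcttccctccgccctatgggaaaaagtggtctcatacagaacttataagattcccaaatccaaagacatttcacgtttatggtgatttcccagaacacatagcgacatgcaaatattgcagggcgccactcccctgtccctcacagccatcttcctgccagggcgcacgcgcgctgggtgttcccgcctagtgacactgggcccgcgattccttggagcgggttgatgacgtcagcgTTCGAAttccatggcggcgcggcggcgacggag
TOPBP1, chr3:133661912-133662191, minus strand: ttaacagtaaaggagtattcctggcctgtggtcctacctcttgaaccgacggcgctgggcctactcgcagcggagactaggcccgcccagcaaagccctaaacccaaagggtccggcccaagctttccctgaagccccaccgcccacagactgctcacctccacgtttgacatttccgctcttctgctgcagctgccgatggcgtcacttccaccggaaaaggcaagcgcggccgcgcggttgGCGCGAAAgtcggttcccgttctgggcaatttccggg
FANCD2, chr3:10026187-10026466, plus strand: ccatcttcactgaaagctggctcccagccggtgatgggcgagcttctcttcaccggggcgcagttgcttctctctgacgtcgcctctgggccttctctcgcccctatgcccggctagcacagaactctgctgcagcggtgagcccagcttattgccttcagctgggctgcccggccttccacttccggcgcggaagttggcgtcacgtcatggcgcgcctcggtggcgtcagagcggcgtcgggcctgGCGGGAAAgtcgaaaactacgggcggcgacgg
FANCF, chr11:22625794-22626073, minus strand: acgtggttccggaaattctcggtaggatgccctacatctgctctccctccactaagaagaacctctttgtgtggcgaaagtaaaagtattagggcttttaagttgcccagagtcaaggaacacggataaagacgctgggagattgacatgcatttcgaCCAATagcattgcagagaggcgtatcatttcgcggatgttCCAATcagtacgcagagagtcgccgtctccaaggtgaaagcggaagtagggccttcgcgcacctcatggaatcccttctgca

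The capitals in FANCD2 and TOPBP1 are E2F words, GCGGGAAA beginning 2 bases before the start and GCGCGAAA beginning 7 bases before it. In POLQ they are CHR words, TTCAAA at 230 bases before the start and TTTGAA at 3 bases after it, and in PARP2 a CHR word, TTCGAA, at 3 bases before the start. In RAD51AP1 the word is a CCAAT box read on the other strand, ATTGG, at 70 bases before the start, and FANCF carried CCAAT at 92 and at 52 bases before it. No match says only that these letters are missing from the window. The E2F words searched were TTTGGCGC, TTTCCCGC, TTTGCCGC and TTTCGCGC on both strands. They were present in 10 of 72 windows of members (13.9%, some genes having several starts) and in 3.31% of 35116 windows of all genes. Among windows of members that fell, 5 of 31 (16.1%) held such a word, and 5 of 39 (12.8%) among those of members tested that did not fall. CHR words (TTTGAA and TTCGAA, both strands) were in 11.1% of members' windows, below the 16.4% of all windows, but with 7 of 31 windows of members that fell (22.6%) and 1 of 39 of the others (2.56%). CCAAT, on both strands, was in 44.4% of members' windows and 34.6% of all. It occurred in 21 of 31 windows of members that fell (67.7%) and in 11 of 39 of the others (28.2%). Counted once per gene, the share was 17 of 26 genes that fell against 8 of 23 of the others for CCAAT, 7 of 26 against 1 of 23 for CHR words, and 5 of 26 against 4 of 23 for E2F words. These shares describe letters in windows and were not tested, and windows of 1 gene overlap.

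The BRCA group split within its own heterodimer. BRCA1, the ubiquitin ligase that directs breaks toward recombination, fell from 129 ± 4.53 CPM to 71.7 ± 6.68 CPM (SD, n = 3 each; log2 fold change −0.87 ± 0.11, SE; adjusted p = 8.83e-11). BRIP1, the helicase that binds BRCA1, was at 98.9, 94.5 and 90.8 CPM with DMSO and at 48.8, 56.4 and 48.1 CPM with mocetinostat. The groups were well apart, and the change of −0.91 ± 0.12 (adjusted p = 6.52e-10) was the lowest of these 5 genes. PALB2, the bridge between BRCA1 and BRCA2, fell as well (−0.78 ± 0.14, adjusted p = 1.99e-06). BRCA2, a mediator of strand exchange, had 47.3, 40.8 and 35.2 CPM with DMSO and 44.6, 41.5 and 43.5 CPM with mocetinostat. The samples of BRCA2 overlapped, with a difference of 0.07 ± 0.14 and a 95% interval from −0.20 to 0.35. Under GAPDH scaling BRCA2 passed as higher, at 0.61 (adjusted p = 0.000239). BARD1, the obligate partner of BRCA1, had a log2 fold change of −0.20 ± 0.15 (adjusted p = 0.261), though its mocetinostat samples (29.0 to 32.3 CPM) all lay below its DMSO samples (33.9 to 37.6 CPM).

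Among the end resection genes, NBN fell while its complex partners did not pass the test under TMM. Scaled to GAPDH, NBN still fell (−0.64, adjusted p = 3.99e-05), while MRE11 (0.46, adjusted p = 0.00144) and RAD50 (0.57, adjusted p = 0.0353) rose. NBN, which ties the nuclease MRE11 to the kinase ATM, was at 127, 127 and 105 CPM with DMSO and at 59.1, 40.9 and 54.3 CPM with mocetinostat. Every treated sample was far below every control, a 2.26-fold lower level (log2 fold change −1.18 ± 0.12, adjusted p = 7.73e-14). MRE11 had means of 79.9 ± 10.8 and 74.8 ± 6.32 CPM (log2 fold change −0.08 ± 0.12, 95% interval −0.31 to 0.15). RAD50, the ATPase of the complex, was low at 12.6 ± 1.31 and 12.4 ± 3.20 CPM, and 76.9% of its exon bases lie within another annotated gene on the same strand, listed at 0 counts in every sample. Reads that match 2 genes are left uncounted by many counters, and how they were treated here is not given in the sources used here. RBBP8, which starts resection, was the group's highest. It had 90.8, 84.1 and 91.1 CPM with DMSO and 108, 102 and 111.9 CPM with mocetinostat. The 3 treated samples lay just above the controls (0.28 ± 0.11, adjusted p = 0.019). DESeq2 gave an adjusted p of 0.0941 for RBBP8, and without DMSO replicate 2 edgeR gave 0.143, without mocetinostat replicate 1 0.074 and without mocetinostat replicate 3 0.0939. EXO1, the exonuclease for long-range resection, had overlapping samples and a log2 fold change of −0.12 ± 0.13.

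All 3 RecQ helicases, enzymes that unwind recombination intermediates and stalled forks, fell, although none of the 3 calls held under GAPDH scaling, where WRN was at −0.25 (adjusted p = 0.152), BLM at 0.18 and RECQL4 at 0.03. WRN, mutated in Werner syndrome, had 51.7, 46.2 and 47.9 CPM with DMSO and 33.1, 26.6 and 22.0 CPM with mocetinostat. Its groups did not overlap (−0.79 ± 0.15, adjusted p = 4.3e-06), and its adjusted p was 0.121 when every library was thinned to the smallest total. BLM, the Bloom syndrome helicase, had 57.1, 55.2 and 36.7 CPM against 35.7, 47.7 and 36.1 CPM. DMSO replicate 3 of BLM sat among the treated samples, and the change of −0.36 ± 0.15 had an adjusted p of 0.0295. The call for BLM was lost without DMSO replicate 1 (0.146) or 2 (0.099), without mocetinostat replicate 1 (0.191) or 3 (0.0786), and with DESeq2 (0.142). RECQL4 fell by 0.50 ± 0.12 on the log2 scale (adjusted p = 0.000374).

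RAD51AP1, an accessory protein of strand invasion, had the deepest fall of all members. It was at 52.2, 49.6 and 40.2 CPM with DMSO and at 11.3, 4.34 and 12.4 CPM with mocetinostat. Its highest treated sample was far below its lowest control, and the level was 4.65-fold lower (log2 fold change −2.22 ± 0.20, adjusted p = 1.88e-16). RAD54L, the motor protein that drives strand invasion, fell by 0.85 ± 0.14 on the log2 scale (adjusted p = 3.61e-07). On the opposite strand, LRRC41 covers 19.9% of the exon bases of RAD54L, and its counts fell from 844, 349 and 516 to 62, 19 and 27. Strandedness of the counting is not given in the sources used here, and the part of LRRC41 in the fall of RAD54L was not tested. Of the paralogs RAD51B, RAD51C, RAD51D, XRCC2 and XRCC3, accessory factors of strand exchange, a pair passed the test. XRCC2 fell by 0.56 ± 0.13 (adjusted p = 0.00015) and XRCC3 by 0.52 ± 0.19 (adjusted p = 0.0112), although KLC1 covers 76.7% of the exon bases of XRCC3 on the opposite strand. XRCC3 lost its call with DESeq2 (adjusted p = 0.0788) and without mocetinostat replicate 1 (0.0992) or 3 (0.0722), and had a log2 fold change of 0.04 after that thinning. RAD51C had 46.0, 51.4 and 41.4 CPM with DMSO and 51.1, 64.5 and 46.4 CPM with mocetinostat. These samples overlapped, and 0.20 ± 0.14 was the highest value of the group. RAD51D (−0.01 ± 0.22), RAD51B (−0.51 ± 0.35), RAD52 (−0.16 ± 0.21) and RAD54B (−0.21 ± 0.37) did not pass the test. RAD51B and RAD54B averaged under 10 CPM, and RAD54B shares 66.0% of its exon bases with FSBP on the same strand.

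The Fanconi core held both directions. FANCG fell from 39.1, 40.0 and 35.4 CPM to 22.6, 18.6 and 14.9 CPM. The lowest control was well above the highest treated sample (−0.98 ± 0.17, adjusted p = 8.91e-07). FANCM, the helicase that anchors the core complex to DNA, fell by 0.83 ± 0.16 on the log2 scale (adjusted p = 3.56e-06), and FANCA, the core subunit bound by FANCG, by 0.52 ± 0.11 (adjusted p = 3.05e-05), with ZNF276 lying across 19.6% of the exon bases of FANCA on the opposite strand. FANCF, an adaptor within the core, was the exception. It had 5.07, 4.16 and 5.60 CPM with DMSO and 11.9, 8.68 and 11.2 CPM with mocetinostat. Each treated sample was above each control, a 2.17-fold higher level (log2 fold change 1.12 ± 0.30, adjusted p = 0.00093), and its DMSO mean of 4.94 CPM was the lowest of the members tested. After thinning, FANCF had a log2 fold change of 1.35 and an adjusted p of 0.0847. FANCB (0.33 ± 0.17, adjusted p = 0.0704), FANCC (−0.34 ± 0.16, adjusted p = 0.0605), FANCE (0.19 ± 0.23) and FANCL, the ubiquitin ligase of the complex (−0.12 ± 0.22), did not pass.

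The clamp that the core complex modifies fell as a pair. FANCD2 was at 114, 110.2 and 101 CPM with DMSO and at 54.3, 55.8 and 51.8 CPM with mocetinostat. FANCI had 203, 189.7 and 171 CPM against 106, 108 and 101 CPM. In both genes the treated samples lay close together and far below the controls. The log2 fold changes were −1.01 ± 0.12 for FANCD2 (adjusted p = 6.97e-12) and −0.84 ± 0.10 for FANCI (adjusted p = 7.48e-12). FANCD2 lay at the edge of 2-fold, with −0.99 without DMSO replicate 1 or with RLE factors.

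Of the structure-specific nucleases, EME1 and its catalytic partner MUS81 fell and the scaffold SLX4 did not pass the test. EME1 had 16.7, 23.7 and 23.0 CPM with DMSO and 13.7, 6.82 and 13.7 CPM with mocetinostat. The groups did not overlap, and the change was −0.78 ± 0.22 (adjusted p = 0.00157). SLX4 had 61.2, 66.4 and 72.2 CPM against 73.4, 72.5 and 71.3 CPM, overlapping, with a difference of 0.12 ± 0.12. MUS81 fell by 0.51 ± 0.15 on the log2 scale (adjusted p = 0.00181). LRRC59 and CFL1 lie opposite 16.4% and 13.9% of the exon bases of EME1 and MUS81.

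Damage signaling genes moved in both directions. TOPBP1, which switches ATR on, fell from 225, 213 and 211 CPM to 109, 100.4 and 93.7 CPM. Control and treated samples were far apart, a 2.13-fold lower level (log2 fold change −1.09 ± 0.09, adjusted p = 1.15e-16). CHEK2, the effector kinase of ATM, was at 13.0, 15.0 and 14.7 CPM with DMSO and at 20.8, 18.6 and 26.5 CPM with mocetinostat. The treated samples were all higher, by 0.64 ± 0.20 on the log2 scale (adjusted p = 0.00447). CHEK2 had an adjusted p of 0.0596 with DESeq2 and of 0.0605 without mocetinostat replicate 3, and near-identical pseudogene copies can take or lend its reads. CHEK1, the effector kinase of ATR, fell by 0.76 ± 0.15 (adjusted p = 4.86e-06) and ATM by 0.53 ± 0.11 (adjusted p = 1.31e-05). ATR had a log2 fold change of −0.22 ± 0.11 (adjusted p = 0.0837).

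The 4 chromatin response genes all fell under TMM, with no overlap between conditions in any, but RIF1 alone kept its call under GAPDH scaling, where H2AX was at −0.04 (adjusted p = 0.735), TP53BP1 at −0.02 (adjusted p = 0.847) and MDC1 at 0.16. RIF1, which acts with TP53BP1 to hold back resection, was at 340.0, 310.1 and 296 CPM with DMSO and at 167, 162 and 163 CPM with mocetinostat. The treated samples were nearly alike, and the change was −0.94 ± 0.09 (adjusted p = 6.54e-16). MDC1, the reader of phosphorylated H2AX, had 147, 184 and 181 CPM against 128, 132 and 136 CPM. It changed least of the group (−0.37 ± 0.10, adjusted p = 0.000629), and DMSO replicate 1 was its lowest control. H2AX, the histone variant phosphorylated around breaks, fell by 0.57 ± 0.08 (adjusted p = 1.58e-08). TP53BP1 fell by 0.55 ± 0.09 (adjusted p = 1.84e-07), with TUBGCP4 across 28.8% of its exon bases on the other strand.

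Classical end joining held the most abundant members. Per kilobase of exon, H2AX was highest with DMSO at 197 CPM, followed by XRCC6 at 147, XRCC5 at 84.9, and PRKDC at 45.6 CPM per kilobase. Exon lengths here merge the exons of all annotated transcripts of a gene and can exceed the transcript made, so orders per kilobase are uncertain. XRCC6 had 533, 458 and 444 CPM with DMSO and 247, 249 and 273 CPM with mocetinostat. XRCC5, which forms the Ku ring with it, had 499.6, 436 and 456 CPM against 247, 266 and 236 CPM. Both fell by 0.90 ± 0.08 on the log2 scale, with adjusted p = 3.27e-16 for XRCC6 and 2.34e-16 for XRCC5. PRKDC, the catalytic subunit of DNA-PK, had means of 1327 ± 18.8 and 937 ± 26.5 CPM and fell less, by 0.50 ± 0.06 (adjusted p = 3.28e-10). Later steps did not pass the test under TMM. Under GAPDH scaling LIG4 (0.69, adjusted p = 0.000307) and DCLRE1C (0.64, adjusted p = 0.0127) passed as higher. LIG4, the ligase, had 27.6, 30.8 and 25.5 CPM with DMSO and 28.0, 36.6 and 31.1 CPM with mocetinostat. These samples overlapped (0.16 ± 0.17). XRCC4, its scaffold, had a log2 fold change of −0.61 ± 0.29 (adjusted p = 0.0602) at 9.83 and 6.24 CPM, with no overlap between conditions. DCLRE1C, the Artemis nuclease, had 0.10 ± 0.23. NHEJ1, a cofactor of the ligase, had raw counts of 12, 4 and 0 in the DMSO samples and of 1, 2 and 0 in the treated ones, and was too low to be tested.

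The PARP and alternative end joining genes had the lowest median of the 12 roles, −1.06, and all 4 fell, although PARP1 was at 0.24 under GAPDH scaling. POLQ, the polymerase of microhomology-mediated joining, was at 136, 117 and 118 CPM with DMSO and at 52.5, 61.4 and 45.6 CPM with mocetinostat. PARP2, a sensor of DNA breaks, was at 70.0, 73.1 and 69.7 CPM against 27.6, 32.2 and 34.0 CPM. In both, every treated sample was below every control by a wide margin. POLQ was 2.37-fold lower (log2 fold change −1.24 ± 0.12, adjusted p = 3.78e-15) and PARP2 2.31-fold lower (−1.21 ± 0.14, adjusted p = 4.46e-12). PARP1, the main enzyme making poly(ADP-ribose), had 399, 447 and 484 CPM with DMSO and 366, 325 and 392 CPM with mocetinostat. Its conditions were close, with the highest treated sample just under the lowest control (−0.29 ± 0.08, adjusted p = 0.00104). LIG3, the ligase of this route, fell by 0.91 ± 0.11 (adjusted p = 2.57e-11), and RFFL lies opposite 29.1% of its exon bases. Both mismatch repair genes missed the threshold. MSH6, a mismatch sensor, had 208, 232 and 251 CPM against 214, 187 and 202 CPM. PMS2 had 23.1, 19.6 and 17.1 CPM against 16.3, 16.1 and 16.2 CPM. MSH6 overlapped between conditions (−0.18 ± 0.09, adjusted p = 0.0594) and PMS2, which has pseudogene copies, did not (−0.31 ± 0.20, adjusted p = 0.175).

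The 21 members that did not pass had a median DMSO level of 25.3 CPM, and the 35 that passed had one of 94.7 CPM. For 19 of the 21 the 95% interval stayed within 2-fold in either direction, the others being the sparsely counted RAD51B and XRCC4. Exon overlap on the opposite strand exceeded 10% in 9 members. Without them, a choice made after the values were seen, 24 of 47 members fell and 3 rose. Over all genes tested, with no such choice made, 31.4% fell and 32.9% rose.

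Ratios between the counts of 2 genes in the same library do not depend on how libraries are scaled, so 23 pairs of partners, chosen after the values were seen, were compared this way. In 12 pairs the conditions did not overlap, with the first gene lower relative to its partner in 8 and higher in 4. The share among pairs of other genes was not computed. Of all single genes tested, 32.8% were lower and 33.7% higher without overlap, so such separation was common here. With 3 samples per condition an exact two-sided permutation test cannot go below p = 0.1, the value of each of these 12 pairs. The log2 ratio of NBN to MRE11 was 0.48, 0.68 and 0.61 with DMSO and −0.47, −0.79 and −0.40 with mocetinostat, a change of −1.14. Thus the larger raw count of the pair changed from NBN to MRE11 in all 3 treated samples. Per kilobase of exon, MRE11 was above NBN in both conditions, at 10.4 against 6.17 CPM with DMSO and 9.75 against 2.65 CPM with mocetinostat. That order rests on merged exon lengths of 19417 bases for NBN and 7674 for MRE11, so it may not hold for the transcripts made. PALB2 to BRCA2 went from 0.32, 0.27 and 0.50 to −0.44, −0.57 and −0.54, a change of −0.88. These raw counts crossed too. With the same limit on length, PALB2 stayed above BRCA2 per kilobase, at 7.09 against 2.85 CPM with DMSO and 4.06 against 3.0 CPM with mocetinostat. PARP2 to PARP1 changed by −0.89, XRCC3 to RAD51C by −0.70, BRCA1 to BARD1 by −0.66, and FANCD2 to FANCI by −0.17. In the other direction, CHEK2 to ATM changed by 1.16, LIG4 to XRCC4 by 0.84 and PRKDC to XRCC6 by 0.39. The subunits of Ku kept pace. XRCC5 to XRCC6 was −0.09, −0.07 and 0.04 with DMSO and 0.00, 0.10 and −0.21 with mocetinostat, and BRIP1 to BRCA1 changed by −0.04 with overlapping samples.

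**Figure D3:**
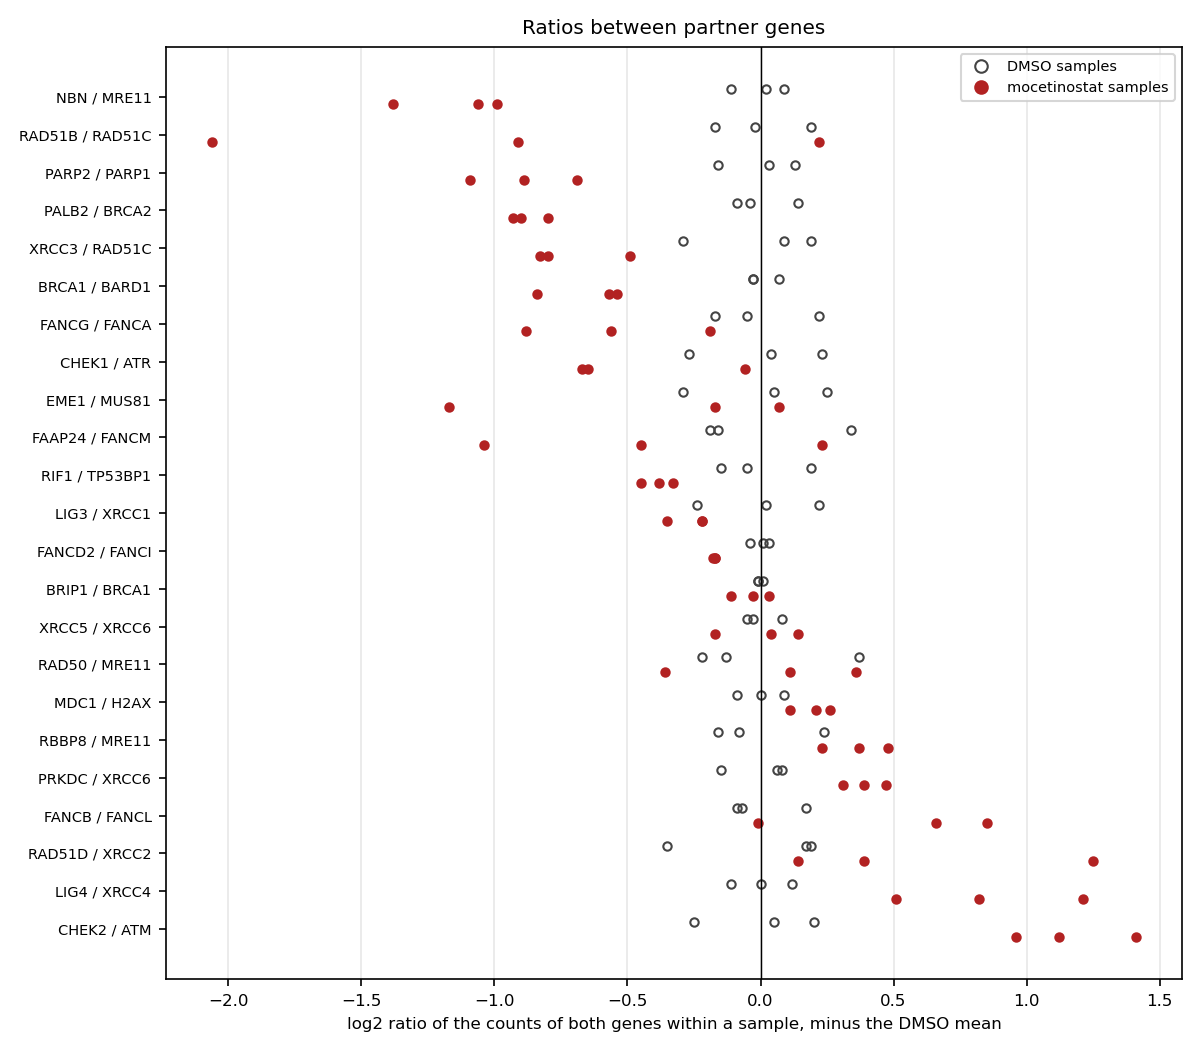
Log2 ratio of the counts of 2 partner genes within each sample, minus the mean of the DMSO samples, for 23 pairs. Open circles are DMSO and filled circles mocetinostat samples. The treated samples of NBN to MRE11 and of PARP2 to PARP1 lie to the left of the controls and those of CHEK2 to ATM to the right, while XRCC5 to XRCC6 overlaps with a change of 0.00.

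The direction of the members depended on the reference used for scaling. With RLE factors or library size alone, the median of the members was −0.50 and again 32 fell and 3 rose. Scaled to GAPDH, a glycolytic gene often used as a reference, all genes tested had a median of 0.53 and the members one of 0.03. GAPDH itself was at 3132, 3032 and 2953 CPM with DMSO and at 2034, 2187 and 2111 CPM with mocetinostat. Of all genes called, 48.8% were lower under TMM and 15.1% under GAPDH scaling. These scalings shift all genes nearly alike, so the distance of −0.51 between the members' median and that of all genes is the same in each by construction. With every library thinned to the smallest total, which is no such shift, the distance was −0.49 and 41 of the 56 lay below the median of all genes, in place of 45. RAD51AP1, POLQ, PARP2, NBN, TOPBP1 and FANCD2 stayed negative and FANCF positive under TMM, RLE, library size and GAPDH scaling. They were picked as over 2-fold under TMM, and the shift of all genes was at most 0.53. Their signs were therefore set by that choice and lend no separate support.

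**Figure D4:**
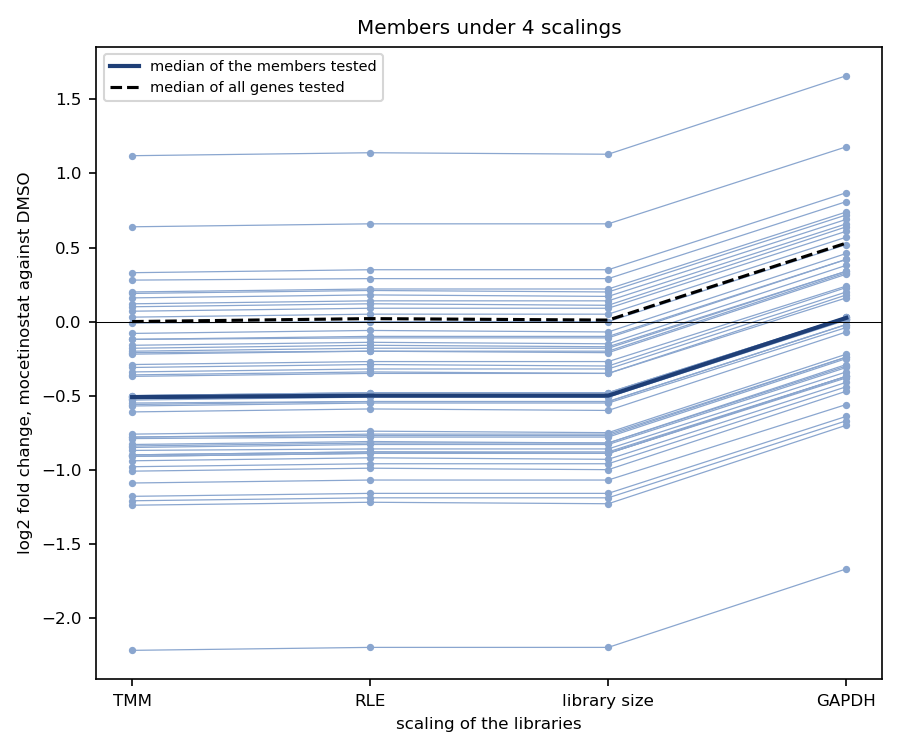
Log2 fold change of the members tested under 4 scalings of the libraries. Thin lines are single genes, the thick line is the median of the members, and the dashed line is the median of all genes tested. The lines run nearly level from TMM to library size and rise together under GAPDH scaling, where the median of the members is 0.03 and that of all genes 0.53.

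Of 125 other DNA repair genes, 119 were tested, 54 fell (45.4%) and 17 rose (14.3%), with a median of −0.28. Over all genes tested, 31.4% fell and 32.9% rose. Among the recombination genes outside the members, 11 of 23 fell and 5 rose, from MCM9, a helicase of recombination (−1.45 ± 0.23, adjusted p = 7.16e-08), to ZSWIM7, a regulator of recombination (1.29 ± 0.30, adjusted p = 0.000135). Among other Fanconi genes, 6 of 12 fell, with FAAP24, a partner of FANCM, at −1.27 ± 0.32 and the nuclease DCLRE1B at 0.12 ± 0.16. Other end joining genes had 7 of 15 lower and 3 higher, from the shieldin subunit SHLD3 (−2.06 ± 0.57 at 4.46 CPM in DMSO) to the end-joining factor APLF (0.79 ± 0.23). Other damage signaling genes had 8 of 20 lower and 4 higher. RHNO1, a partner of the checkpoint clamp, was lowest (−1.55 ± 0.15) and ABRAXAS1, the scaffold of a BRCA1 complex, highest (1.13 ± 0.26). These lists had medians between −0.27 and −0.37, closer to 0 than that of the members.

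Base and nucleotide excision repair, which act on single damaged bases and on bulky lesions, had medians nearer to that of all genes. Base excision repair had 6 of 16 lower (37.5%, near the 31.4% of all genes), 2 higher (12.5%) and a median of 0.02. It ran from the uracil glycosylase UNG (−1.13 ± 0.12) to the alkyladenine glycosylase MPG (0.84 ± 0.19). Nucleotide excision repair had 8 of 17 lower, 1 higher and a median of −0.16, from the TFIIH subunit GTF2H3 (−0.84 ± 0.18) to the damage sensor XPC (0.43 ± 0.14). Translesion synthesis had 7 of 11 lower, 1 higher and a median of −0.42, from the ubiquitin ligase RAD18 (−0.84 ± 0.14) to HLTF (1.28 ± 0.10), a fork-remodeling enzyme that rose from 89.9 ± 9.49 to 217 ± 28.3 CPM. Differences between these lists were not tested.

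Under TMM, most of the cell cycle genes listed fell, as most members did. Of 20 S phase genes, 14 fell and 2 rose, with a median of −0.49, where 31.4% of all genes tested fell and 32.9% rose. Under GAPDH scaling 4 of the 20 fell and 8 rose, with a median of 0.04, where 9.82% of all genes fell and 55.2% rose. The summed level of the S phase genes was 3903 to 4047 CPM with DMSO and 2879.8 to 3002 CPM with mocetinostat. RRM1, a subunit of ribonucleotide reductase, was lowest (−1.36 ± 0.10) and the replication licensing factor CDC6 highest (0.73 ± 0.09). Of 18 G2/M genes, 17 could be tested and all 17 fell, with a median of −1.16. Under GAPDH scaling 16 of them still fell, with a median of −0.64, and CDK1 was at 0.22. The list had a summed level of 6393 to 6548 CPM with DMSO and 2673 to 2817 CPM with mocetinostat. AURKA, a mitotic kinase, was lowest at −2.13 ± 0.10 and CDK1 highest at −0.31 ± 0.11. Of 15 p53 target genes, 6 rose (40.0%, with 32.9% of all genes tested rising) and 1 fell. The cell cycle inhibitor CDKN1A rose from 58.1 ± 5.09 to 419.5 ± 32.3 CPM (2.86 ± 0.09, adjusted p = 4.06e-40). AEN was at the other end with −0.28 ± 0.13 (adjusted p = 0.0546). The summed level of the 15 genes was 556 to 562 CPM with DMSO and 956 to 1057 CPM with mocetinostat, and CDKN1A made up most of that rise. The share of cells in each phase was not measured here, and the part of these lists in the members' result was not tested.

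**Figure D5:**
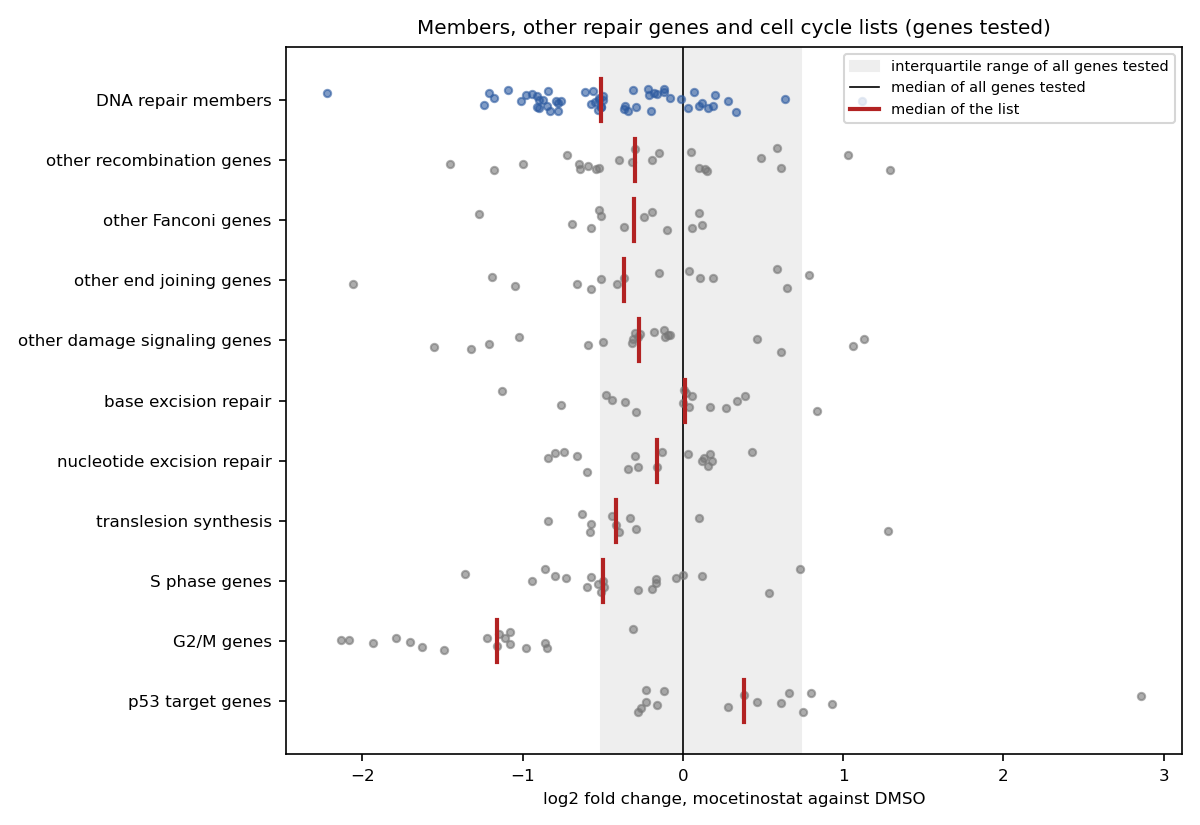
Log2 fold change of every tested gene in the member list, 7 lists of other repair genes, and the S phase, G2/M and p53 target lists. Red bars are list medians, the line is the median of all genes tested and the shaded band their interquartile range, from −0.51 to 0.74. The median of the members, −0.51, is at the edge of the band, near that of the S phase genes at −0.49, and the G2/M genes at −1.16 lie farther left.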

How the data were processed

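RNA-Seq was analyzed in TC28a2 cells with DMSO or mocetinostat (3 samples each). The authors deposited 1 table of raw counts per gene, without normalization. Per the labels and the study's methods, these are featureCounts 1.6.4 totals of STAR 2.6.1d alignments to GRCh38, from single-end reads cleared of adapter and rRNA sequence. The strand setting and the treatment of reads that match several genes are not given in the sources used here. The libraries are without molecular identifiers, and depth ran from 1619344 to 11031132 counts, so low genes are less precise in the shallower treated libraries.

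From these counts, edgeR 4.0.16 (limma 3.58.1, R 4.3.3) computed TMM factors and CPM, retained 13966 of 60623 genes by filterByExpr (minimum count 10), and compared the treatments by the quasi-likelihood test over all 6 samples, with treatment as the only term. P values were adjusted by Benjamini-Hochberg over all genes tested, with a threshold of 0.05, and over 2-fold means a log2 fold change beyond 1. Each SE was the absolute log2 fold change divided by the square root of the F statistic of the test. The 95% intervals used these SEs with a normal quantile, which is approximate with so few samples. The biological coefficient of variation was 9.3%. On counts simulated for this comparison over 13617 genes, edgeR recovered 84.2% of 95 genes changed 2-fold and 94.3% of 105 changed 4-fold, and called 12 unchanged genes. That simulation changed only 200 genes and gave all genes the common dispersion. In the real counts 31.4% of genes fell and 32.9% rose, so these rates need not hold for them. DESeq2 1.42.0 was an alternative. Pairs of replicates differed by 1.96 to 7.19 chi-square units per degree of freedom, more than sampling noise, so each sample counted as a replicate. Exon overlaps and exon lengths, with the exons of all transcripts of a gene merged, are from GENCODE 44, to which 99.5% of genes were matched. Promoters are from RefSeq on GRCh38.p14.

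The members and all gene lists were chosen with earlier results of these data known. Values in every sample are given for members over 2-fold, the members at both ends of each of 12 roles, members too low to test, and in the partner pairs that were chosen after seeing the values. Of other lists, the tested genes with the highest and lowest log2 fold change are named, with further markers, GAPDH and overlapping genes added after their values were seen. A few other repair genes are counted in their lists and not reported singly here. Other scalings, filters, thinning, the replicate block and leaving out each sample were tried as alternatives. Summaries used Python 3.11.15, pandas 2.3.3, scipy 1.17.1 and matplotlib 3.10.9.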

Additional observations from a re-analysis of the deposited data

How the results depend on the processing

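Of the members, 32 fell and 3 rose, with 6 and 1 over 2-fold, and of the other repair genes 54 fell and 17 rose. With the replicate block these numbers were 32, 3, 7, 1, 53 and 17, and no member changed its direction or its side of the threshold. Samples with the same number did not deviate together (correlations 0.00779, 0.0116 and −0.0162), so the numbers were not taken as pairs. DESeq2 called 30 members lower, 1 member higher and 11 other repair genes higher, with 3819 of all genes lower and 4661 higher. Without the filter, where the median of the same 13966 genes moved by −0.25, 40 members were lower and 1 higher. Of the members, 20 were over 2-fold lower and 0 over 2-fold higher. In that fit 6 other repair genes were higher, and of all genes 5640 were lower and 4245 higher. A test against a fold change of 1 on the log2 scale (glmTreat) kept 2 members lower, RAD51AP1 and POLQ, and 0 higher. Thinned to 1619344 counts each, edgeR called 25 members lower, with 2261 of all genes lower and 2649 higher. It called 0 members higher (3 at an unadjusted p under 0.05, and DESeq2 on the full counts called 1) and 0 over 2-fold higher. Among the other repair genes 22 were lower and 7 higher after thinning. Of the members, 10 lost their call with their direction kept, among them WRN, XRCC2, FANCA, FANCG, EME1 and PARP1. Under GAPDH scaling 14 members were lower and 17 higher, 1 and 2 over 2-fold, and 11 and 53 of the other repair genes, where 9.82% of all genes were lower and 55.2% higher.

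Leaving out 1 sample gave 31 to 33 members lower, 1 to 4 higher, 5 to 8 over 2-fold lower and 0 to 1 over 2-fold higher. The 1 higher was without mocetinostat replicate 3. FANCF was at 1.00 and no longer over 2-fold without DMSO replicate 2 or mocetinostat replicate 1, where it kept an adjusted p of 0.00551 and 0.0229, and FANCD2 was at −0.99 without DMSO replicate 1, with RLE factors also at −0.99, and at −0.93 when 10 counts were required of every sample. Some members passed with a sample left out and not with all 6, RAD51B (−0.99) without mocetinostat replicate 3, FANCC (−0.42) without mocetinostat replicate 2, FANCB (0.40) without DMSO replicate 1, MSH6 without DMSO replicate 1 (−0.27) or mocetinostat replicate 1 (−0.25), and ATR without DMSO replicate 3 (−0.30) or mocetinostat replicate 1 (−0.35) or 3 (−0.28).

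Values that turned sign under GAPDH scaling were those of BARD1 (0.34), MRE11 (0.46), EXO1 (0.42), BLM (0.18), RECQL4 (0.03), RAD51B (0.03), RAD51D (0.52), XRCC3 (0.02), RAD52 (0.38), RAD54B (0.33), FANCA (0.02), FANCC (0.20), FANCL (0.42), MUS81 (0.02), ATM (0.01), ATR (0.32), MDC1 (0.16), PRKDC (0.03), PARP1 (0.24), MSH6 (0.34), PMS2 (0.23), CDK1 (0.22) and AEN (0.25). Of these, MRE11, EXO1, RAD51D, ATR, PARP1 and MSH6 passed as higher under GAPDH scaling. With their sign kept, BRCA2, RAD50, RAD51C, FANCB, FANCE, SLX4, DCLRE1C and LIG4 also came to pass as higher. PALB2, WRN, XRCC2, RAD54L, FANCM, EME1, CHEK1, H2AX and TP53BP1 kept their sign and lost their call as lower. Without the filter, BRCA2 (−0.18), RAD50 (−0.22), RAD51C (−0.05), FANCE (−0.06), SLX4 (−0.13), DCLRE1C (−0.15), LIG4 (−0.09) and DCLRE1B (−0.13) turned. Thinning turned MRE11 (0.15), RAD50 (−0.14), RAD51D (0.13), XRCC3 (0.04), RAD52 (0.02) and RAD54B (0.25). RAD50 was −0.03 and RAD51D 0.02 with DESeq2, and RAD51D was 0.00 with RLE factors or library size and 0.06 when 10 counts were required of every sample. With 1 sample left out, BRCA2 ranged from −0.06 to 0.18, MRE11 from −0.20 to 0.02, RAD50 from −0.08 to 0.15, RAD51D from −0.34 to 0.20, DCLRE1C from −0.12 to 0.20 and DCLRE1B from −0.14 to 0.19. Apart from the shift of all genes that GAPDH scaling and the unfiltered fit carry and the fewer counts of thinning, the cause was not tested. Members near 10 CPM or below have few counts in the shallow treated libraries, which limits what could be detected.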
